A study of Mus musculus with 45 samples.

Results

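Cbs, Cth, Cdo1, Csad, Mpst, Tst, Sqor, Ethe1 and Suox encode the enzymes that make cysteine from homocysteine, oxidise it, pass its sulfur on and oxidise hydrogen sulfide. They were chosen by name, and all 9 were found among the 28454 genes of the count table. Polyadenylated RNA was sequenced from 45 libraries of 11 mouse mammary tumour cell lines, with 3 cultures for each of 15 combinations of line and medium. MYAZ16.1e, MYAZ12.3i and MYAZ6.6g (written MYAZ16_1e, MYAZ12_3i and MYAZ6_6g in the labels) were grown out of mammary tumours that arose in MMTV-cMYC animals, in which the mouse mammary tumour virus promoter drives cMYC in the mammary gland. Myc310 is a single line whose donor, with the MMTV-MYC transgene, bore more than one tumour. LM1, LM2 and LM3 were recovered from lungs of mice whose fat pads had received Myc310 cells, and LM1-LM (LM1_LM in the labels) from lungs after injection of LM1, with LM2-LM and LM3-LM described as its biological replicates. MYAZ12.3i_NDI1 is MYAZ12.3i with NDI1, the yeast NADH dehydrogenase that oxidises NADH without pumping protons. All lines shared one medium of DMEM:F12 with serum, glutamine, insulin, hydrocortisone and EGF, and 250000 cells were seeded per well. MYAZ16.1e, Myc310, LM1 and LM1-LM were also kept for 6 h in medium without cysteine and cystine, which gave 12 deprived libraries beside 30 control libraries of 10 lines and 3 of the NDI1 line. Each line is a single isolate and its cultures are described as technical replicates, so p-values between cultures measure the spread of one line in culture.

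In the transsulfuration (TS) pathway, cystathionine beta-synthase (CBS) joins homocysteine to serine, and cystathionine gamma-lyase, the product of Cth, splits the resulting cystathionine to release cysteine. Cysteine dioxygenase (CDO1) oxidises surplus cysteine to its sulfinate, which CSAD decarboxylates on the way to taurine. Cysteine sulfur also leaves as sulfane sulfur, through mercaptopyruvate sulfurtransferase (MPST) and thiosulfate sulfurtransferase, or rhodanese (TST). In mitochondria, sulfide quinone oxidoreductase (SQOR) passes electrons from hydrogen sulfide to ubiquinone, ETHE1 oxidises glutathione persulfide to sulfite, and sulfite oxidase (SUOX), a molybdenum enzyme, turns sulfite into sulfate. CBS, CTH, CDO1 and CSAD are best known from the liver, whereas the sulfide-oxidising enzymes are found in most tissues.

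Between 19517859 and 29019988 counts per library fell on genes, with a median of 22899900. Levels are given as CPM, the reads of a gene scaled to library size, after TMM scaling over the 45 libraries. No fold is read from values at or under a floor of 3 counts. The labelled epithelial origin was checked against its markers: Krt8 lay between 219.5 and 1704 CPM and Krt18 between 99.0 and 546.1 CPM over the 15 groups, whereas Epcam, Cdh1, Krt5 and Krt14 did not exceed 0.856 CPM in any group. Of the leukocyte markers, Cd68 reached 16.7 CPM, Csf1r at most 0.142, and Lyz2 and Ptprc were at or near 0. Of the alveolar markers, Napsa reached 0.902 CPM in MYAZ12.3i and Sftpb and Sftpc were at or near 0, as were Alb, Apoa1 and Cyp2e1 for hepatocytes. Adgre1, Cd3e, Sftpa1 and Ttr are not analysed here. The fibroblast list was carried by Pdgfra and Pdgfrb and summed to 85.4 CPM in MYAZ12.3i, 32.2 in MYAZ6.6g and 9.13 in MYAZ16.1e. These are bulk RNA values, in which fewer cells of a type and less RNA per cell cannot be told apart.

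Promoter windows of 300 bases, from 250 before to 50 after the annotated start, were read from RefSeq (GRCm38.p6) for 6 of the 9 genes, 10 windows in all. Cth, Tst and Cdo1 are named only. Windows were searched on both strands for TGATGNAA (the C/EBP-ATF response element), TGACNNNGC (the antioxidant response element) and CACGTG (the E-box bound by MYC and its partners). A match stood in 3 of the 10 windows, and 7 held none. The windows of Cbs, Sqor and Suox are shown because their levels differed widely between lines, and that of Mpst because Mpst and its neighbour Tst both fell in deprived cells of Myc310, LM1 and LM1-LM. Capitals mark a match, and the sequences run along the coding strand of each gene. Cbs lies at chr17:31637156-31637455, minus strand, Sqor at chr2:122771463-122771762, plus strand, Suox at chr10:128673869-128674168, minus strand, and the second of 3 Mpst windows at chr15:78406551-78406850, plus strand. The gene spans given below come from GENCODE, so that their starts can differ from those of the RefSeq windows. The Sqor and Mpst windows shown lie inside the gene spans, which start at chr2:122765237 and chr15:78406416, and belong to later annotated starts.
Cbs: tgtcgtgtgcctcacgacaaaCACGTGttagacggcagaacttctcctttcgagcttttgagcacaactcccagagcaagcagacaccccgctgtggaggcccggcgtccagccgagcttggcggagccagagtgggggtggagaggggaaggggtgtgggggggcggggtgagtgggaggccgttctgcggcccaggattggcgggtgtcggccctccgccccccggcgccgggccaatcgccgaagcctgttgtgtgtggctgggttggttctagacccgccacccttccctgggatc
Sqor: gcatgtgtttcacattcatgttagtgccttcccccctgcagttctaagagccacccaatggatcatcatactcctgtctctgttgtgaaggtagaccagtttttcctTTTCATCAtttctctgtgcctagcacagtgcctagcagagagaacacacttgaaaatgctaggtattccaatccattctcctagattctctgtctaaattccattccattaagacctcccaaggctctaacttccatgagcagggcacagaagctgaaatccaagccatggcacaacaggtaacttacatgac
Suox: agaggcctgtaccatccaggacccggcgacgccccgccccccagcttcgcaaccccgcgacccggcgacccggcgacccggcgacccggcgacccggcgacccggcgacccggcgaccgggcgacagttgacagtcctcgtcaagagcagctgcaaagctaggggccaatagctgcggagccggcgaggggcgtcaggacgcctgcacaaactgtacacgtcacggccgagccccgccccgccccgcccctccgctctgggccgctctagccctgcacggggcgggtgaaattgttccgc
Mpst: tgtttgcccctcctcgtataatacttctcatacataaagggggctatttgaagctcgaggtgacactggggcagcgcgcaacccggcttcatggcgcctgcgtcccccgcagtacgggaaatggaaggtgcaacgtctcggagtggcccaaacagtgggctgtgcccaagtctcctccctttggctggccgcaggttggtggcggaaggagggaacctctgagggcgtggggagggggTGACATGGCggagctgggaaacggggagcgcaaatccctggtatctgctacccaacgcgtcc
The Cbs window held CACGTG at position -229 from the start, a motif found in 7.15% of the 32851 promoter windows of the genome. The Sqor window held the reverse complement of TGATGNAA at -143, found in 3.97% of windows. TGACNNNGC stood at -12 in the Mpst window shown and in 12.4% of all windows. The other Mpst windows held none of the motifs. The Suox window, with 73.3% G and C, held none of these motifs. A match in these windows is a stretch of letters and not a measured binding site.

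For a rough comparison between genes, levels were divided by annotated exon length, pooled over all transcripts of a gene. A pooled length can exceed that of the transcripts present, which lowers the value. Cbs was divided by 7.485 kb from 12 transcripts, whereas Suox (2.497 kb) and Ethe1 (1.484 kb) have 1 each. By this measure Suox and Ethe1 had the highest medians of the 9 mRNAs in control medium. The median over 11 lines was 25.99 CPM per kb for Suox, 20.7 for Ethe1, 11.6 for Mpst, 6.76 for Cth, 5.41 for Tst and 4.11 for Csad. Sqor (0.229), Cdo1 (0.189) and Cbs (0.0615 CPM per kb) were scarce. By these medians the last enzyme of sulfide oxidation was the best represented in RNA and the first, Sqor, among the least. Ethe1 exceeded Suox in MYAZ12.3i (17.1 against 8.69 CPM per kb), its NDI1 line (18.6 against 8.83) and MYAZ6.6g (20.7 against 16.2). The ratio of the highest to the lowest line was 1.5 for Ethe1, 1.84 for Mpst and 1.88 for Tst. It was 3.01 for both Cth and Csad, 5.31 for Suox and 6.37 for Sqor. No ratio is given for Cbs, whose lowest line, LM1-LM, had 3, 0 and 1 counts.

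**Figure D1:**
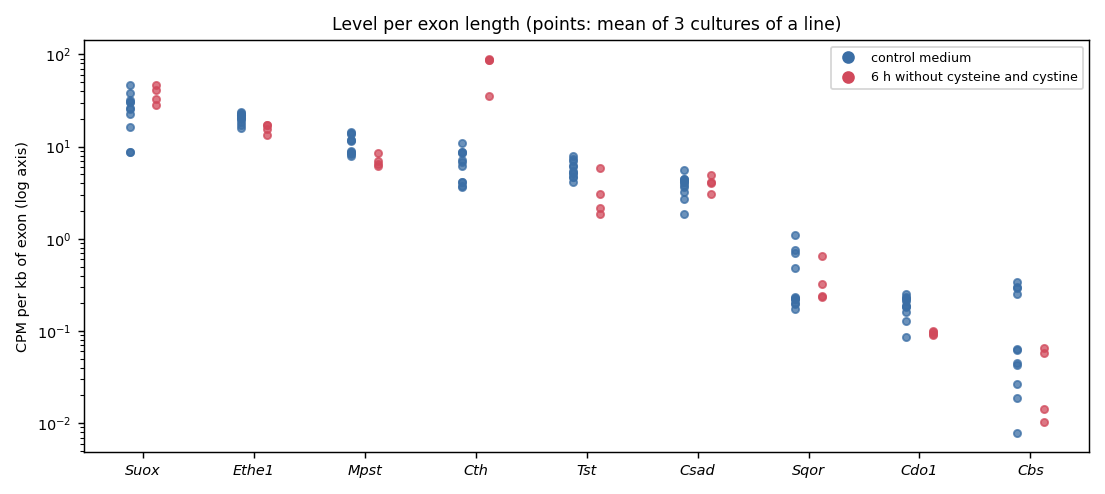
Mean level of each gene per kilobase of exon (CPM per kb, log axis), 1 point per line, for 11 lines in control medium (blue) and 4 lines after 6 h without cysteine and cystine (red). Suox and Ethe1 had the highest medians in control medium (25.99 and 20.7), and Cth reached the highest levels in deprived cells.

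**Figure D2:**
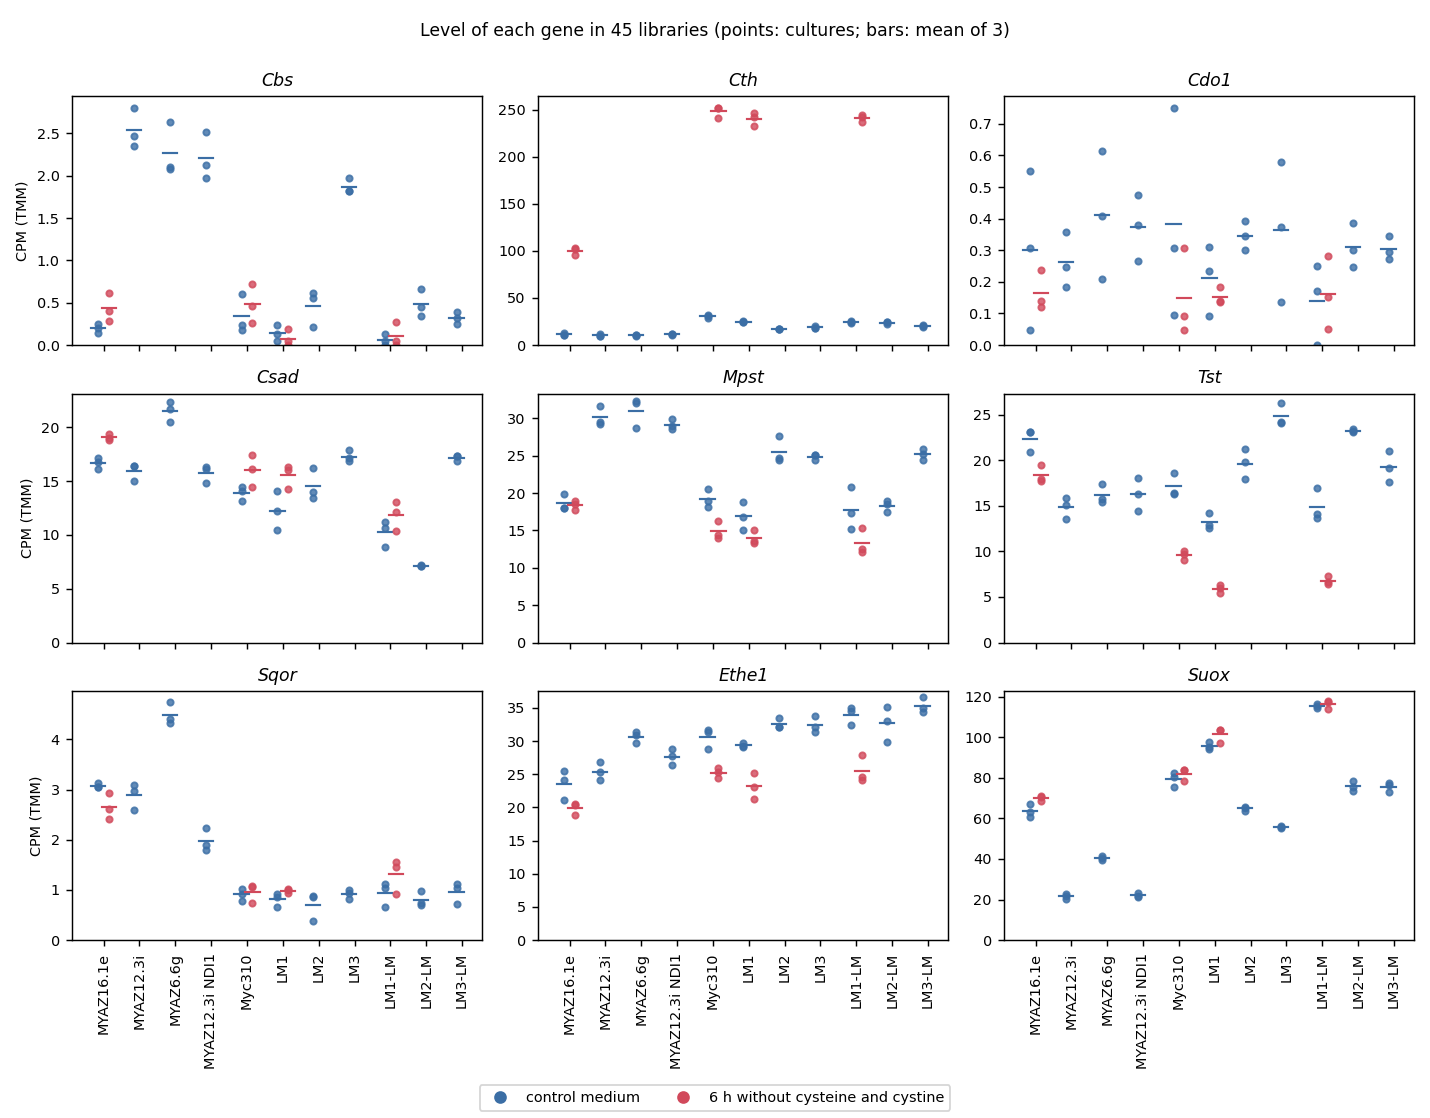
Level of each gene in every library (CPM after TMM scaling, axes from 0), with 1 point per culture and bars at the mean of 3 cultures, for 11 lines in control medium (blue) and 4 of them after deprivation (red). Cth stood between 95.5 and 252.0 CPM in deprived libraries against at most 32.2 CPM in control medium, and Tst was lower in deprived than in control cultures of each of the 4 lines.

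The first question was how the 9 mRNAs responded to 6 h without cysteine and cystine. Cth rose about 8 to 10 times in all 4 lines, Tst and Ethe1 fell in all 4, and Mpst fell in Myc310, LM1 and LM1-LM. Csad rose in LM1 and LM1-LM and Suox in MYAZ16.1e and LM1, by small amounts. Sqor and Cbs passed the test in none of the 4 lines, and Cdo1 was too scarce to be tested. Of 13400 genes tested, 19.3% rose and 19% fell in all 4 lines. Of the 8 genes tested, 4 were called in MYAZ16.1e (2 rose and 2 fell), where 53.7% of 13400 genes were called, and 4 for Myc310 (1 rose and 3 fell), where the share of all genes was 66.8%. In LM1, 6 were called (3 higher and 3 lower) beside 71.1% of all genes, and in LM1-LM 5 (2 higher and 3 lower) beside 72.4%. The share called among the members was thus near that of all genes. Without Cbs, whose counts reached the floor, the median log2 fold change of the 7 remaining genes was -0.03 for MYAZ16.1e, 0.04 for Myc310, 0.12 for LM1 and 0.05 for LM1-LM, and that of all genes lay between -0.01 and 0. Calls use edgeR's quasi-likelihood test with a Benjamini-Hochberg adjusted p under 0.05.

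**Figure D3:**
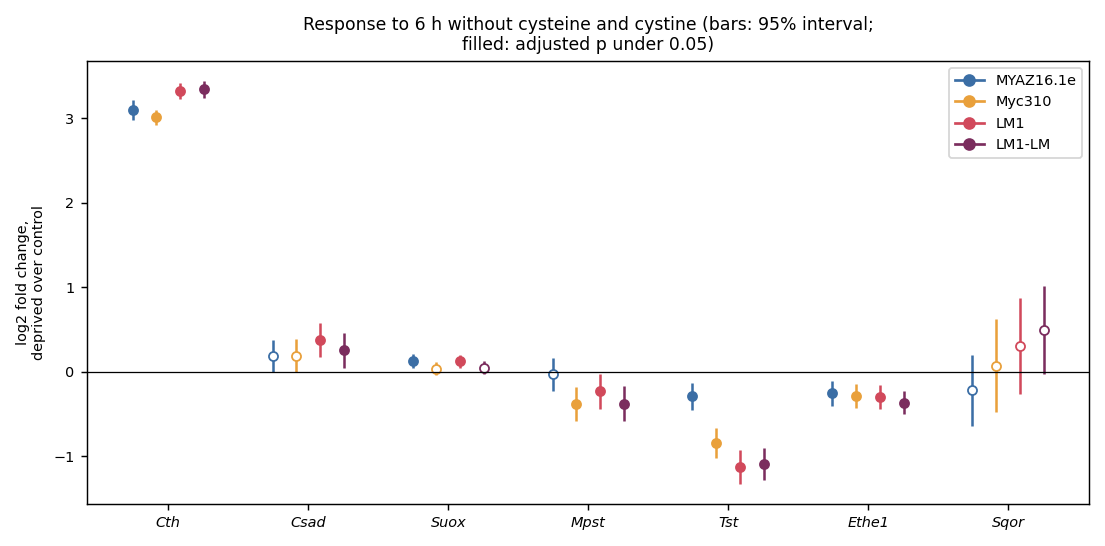
Log2 fold change of 7 genes after 6 h without cysteine and cystine in 4 lines (points: edgeR estimate over 3 against 3 cultures; bars: 95% interval; filled points: adjusted p under 0.05). Cth lay between 3.01 and 3.34, Tst between -0.29 in MYAZ16.1e and -1.13 in LM1, and Ethe1 between -0.26 and -0.37. Cbs and Cdo1 are left out because of their low counts.

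Cth (ENSMUSG00000028179; GRCm38 chr3:157894248-157925077, minus strand, overlapped on the same strand by the unclassified transcript Gm43314) was the strongest responder. In MYAZ16.1e the 3 control cultures had 10.7, 10.6 and 13.0 CPM and the deprived cultures 102.8, 101.6 and 95.5 CPM. Myc310 went from 32.2, 28.2 and 31.0 CPM to 252.0, 241.0 and 251.5 CPM. LM1 went from 24.7, 25.2 and 24.0 CPM to 232.2, 242.1 and 246.9 CPM. Deprived and control cultures did not overlap, and each deprived culture of the Myc310 lineage exceeded every deprived culture of MYAZ16.1e. LM1-LM had 23.3, 24.4 and 25.6 CPM in control medium and 244.2, 242.6 and 237.0 CPM after deprivation. The means stood in a ratio of 8.75 for MYAZ16.1e, 8.15 for Myc310, 9.76 for LM1 and 9.87 for LM1-LM. Because the starting levels differed, similar ratios gave unequal gains: 88.5 CPM in MYAZ16.1e against 217.7 for Myc310, 215.8 for LM1 and 216.9 for LM1-LM. The deprived means of these 3 lines were 248.2, 240.4 and 241.3 CPM, and their cultures overlapped.

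Cbs (ENSMUSG00000024039; GRCm38 chr17:31608894-31637238, minus strand), the first enzyme of the TS pathway, had too few counts in these 4 lines for a precise response. MYAZ16.1e had 5, 3 and 6 counts in control cultures and 6, 13 and 10 in deprived cultures, or 0.198 ± 0.055 and 0.432 ± 0.170 CPM (SD, n = 3 cultures). The log2 fold change was 1.09 with a 95% interval from -0.30 to 2.48 (edgeR adjusted p = 0.184). Myc310 had 6, 4 and 13 counts in control medium and 16, 10 and 6 after deprivation, a log2 fold change of 0.51 with an interval from -0.74 to 1.77 (edgeR adjusted p = 0.475). At this depth a rise of Cbs of several fold lay within both intervals, whose lower ends were -0.30 in MYAZ16.1e and -0.74 in Myc310. A control culture of MYAZ16.1e stood at the floor of 3 counts. Without the cultures numbered 1 the Myc310 value was -0.107. Neither fitted value is therefore read as a fold, nor its interval as a firm limit. LM1 had 1, 3 and 5 counts against 1, 0 and 4, and LM1-LM 3, 0 and 1 against 7, 1 and 0, so that no fold is given for these lines. In deprived cells the RNA of the second TS enzyme therefore stood at 99.96 to 248.2 CPM in group means and that of the first at no more than 0.485 CPM.

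Cdo1 (ENSMUSG00000033022; GRCm38 chr18:46713193-46728395, minus strand), the entry enzyme of cysteine oxidation, had 0 to 19 counts in any library and did not pass the filter of the deprivation fit. Its control means in the 4 lines lay between 0.141 and 0.384 CPM and its deprived means between 0.148 and 0.165 CPM. The cultures of the 2 media overlapped in each of the 4 lines. Csad (ENSMUSG00000023044; GRCm38 chr15:102176999-102204724, minus strand, overlapped by Zfp740 on the other strand), the taurine-pathway decarboxylase, was higher after deprivation in the mean of every line, by small amounts. LM1 went from 10.4, 14.1 and 12.2 CPM to 16.4, 16.0 and 14.2 CPM, a log2 fold change of 0.37 (SE 0.10, edgeR adjusted p = 0.00128). LM1-LM went from 11.2, 8.89 and 10.7 CPM to 12.2, 10.3 and 13.1 CPM, a change of 0.25 (SE 0.10, edgeR adjusted p = 0.0292). The ranges of the cultures were apart in LM1 and overlapped in LM1-LM. In MYAZ16.1e the means were 16.7 and 19.0 CPM (log2 fold change 0.18, edgeR adjusted p = 0.0914) and in Myc310 13.9 and 16.0 CPM (0.19, edgeR adjusted p = 0.0808), and neither passed. One fit over all 45 libraries put Myc310 just past the threshold (edgeR adjusted p = 0.0494). The call in LM1 was lost without the cultures numbered 1 (edgeR adjusted p = 0.0908). That in LM1-LM was lost without those numbered 3 (edgeR adjusted p = 0.168) and with upper-quartile scaling (edgeR adjusted p = 0.141).

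Tst (ENSMUSG00000044986; GRCm38 chr15:78399556-78405907, minus strand), the mitochondrial rhodanese that moves sulfane sulfur from thiosulfate, fell in all 4 lines. LM1 went from 12.5, 14.2 and 12.9 CPM to 6.37, 5.98 and 5.38 CPM. LM1-LM went from 14.1, 16.9 and 13.7 CPM to 6.61, 6.46 and 7.33 CPM. Myc310 went from 16.4, 18.6 and 16.3 CPM to 10.0, 9.09 and 9.76 CPM. In these 3 lines the deprived cultures lay below the control cultures of every line in the series. MYAZ16.1e went from 23.1, 20.9 and 23.1 CPM to 17.7, 19.4 and 17.97 CPM, a smaller step that also separated the cultures. On the log2 scale MYAZ16.1e changed by -0.29 (SE 0.08), Myc310 by -0.84 (SE 0.09), LM1 by -1.13 (SE 0.10) and LM1-LM by -1.10 (SE 0.09), with edgeR adjusted p = 0.0023, 6.20e-10, 1.18e-11 and 6.26e-12. Without the cultures numbered 1 the call in MYAZ16.1e was lost (edgeR adjusted p = 0.0568).

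Mpst (ENSMUSG00000071711; GRCm38 chr15:78406416-78414013, plus strand), which encodes the related enzyme that takes sulfur from mercaptopyruvate, fell less. Myc310 had 18.9, 20.6 and 18.1 CPM in control medium and 14.4, 16.3 and 13.98 CPM after deprivation. LM1-LM had 20.8, 17.3 and 15.2 CPM against 12.5, 12.2 and 15.3 CPM. LM1 had 18.8, 15.1 and 16.8 CPM against 13.3, 13.6 and 15.1 CPM. Only in Myc310 were the ranges of these 3 lines apart. The log2 fold change was -0.38 in Myc310 (SE 0.10, edgeR adjusted p = 0.00112), -0.23 in LM1 (SE 0.10, edgeR adjusted p = 0.0432) and -0.38 in LM1-LM (SE 0.10, edgeR adjusted p = 0.00122). MYAZ16.1e had 18.03, 18.03 and 19.8 CPM against 18.9, 18.6 and 17.7 CPM, a change of -0.03 with a 95% interval from -0.22 to 0.17 (edgeR adjusted p = 0.831). The calls in LM1 and LM1-LM were lost without the cultures numbered 1 (edgeR adjusted p = 0.405 and 0.122). With the replicate number as a block, LM1 also missed the threshold (edgeR adjusted p = 0.0505).

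Tst and Mpst are neighbours on chromosome 15. Their annotated starts lie 509 bases apart and the genes run away from each other. Their products are related, but no stretch of 100 bases, the read length, is shared between their annotated transcripts, and the longest common run is 18 bases. Per kilobase of exon, the mean of Mpst exceeded that of Tst in all 11 lines in control medium, by unequal margins. The levels were furthest apart in MYAZ12.3i (14.05 against 4.69 CPM per kb) and in MYAZ6.6g (14.5 against 5.12 CPM per kb). They were closest in LM2-LM (8.55 against 7.35 CPM per kb) and in MYAZ16.1e (8.69 against 7.07 CPM per kb). The order depends on the pooled exon lengths, 2.143 kb for Mpst and 3.163 kb for Tst. In CPM, without this division, Tst exceeded Mpst in LM2-LM (23.25 against 18.32) and in MYAZ16.1e (22.35 against 18.62). In the other lines the mean of Mpst was higher, by the smallest margin in LM3 (24.88 against 24.81 CPM).

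**Figure D4:**
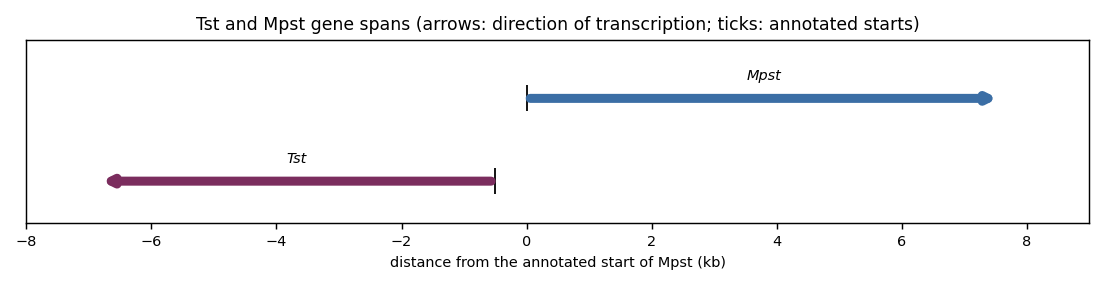
Spans of Tst and Mpst as arrows in the direction of transcription, with distance from the annotated start of Mpst in kb on the x axis and a tick at each annotated start. The starts lie 509 bases apart and the genes do not overlap.

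Ethe1 (ENSMUSG00000064254; GRCm38 chr7:24587543-24608925, plus strand, overlapped by Zfp575 on the other strand), the persulfide dioxygenase, fell by a similar fraction in all 4 lines. MYAZ16.1e went from 21.2, 24.1 and 25.5 CPM to 18.8, 20.6 and 20.4 CPM, and Myc310 from 28.8, 31.7 and 31.4 CPM to 26.0, 24.4 and 25.4 CPM. LM1 went from 29.1, 29.2 and 29.8 CPM to 21.3, 25.3 and 23.1 CPM, and LM1-LM from 35.0, 34.6 and 32.4 CPM to 28.0, 24.6 and 24.1 CPM. The cultures of the 2 media were apart in each line. On the log2 scale MYAZ16.1e changed by -0.26, Myc310 by -0.29, LM1 by -0.30 and LM1-LM by -0.37, each with an SE of 0.07, and edgeR adjusted p = 0.00314, 0.000432, 0.000307 and 1.35e-05. In MYAZ16.1e the call was lost without the cultures numbered 3 (edgeR adjusted p = 0.067).

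Suox (ENSMUSG00000049858; GRCm38 chr10:128669894-128674073, minus strand), which encodes the last enzyme on the way to sulfate, changed little. MYAZ16.1e went from 60.9, 67.2 and 63.4 CPM to 71.0, 70.4 and 68.4 CPM, a log2 fold change of 0.125 (SE 0.04, edgeR adjusted p = 0.00915). LM1 went from 94.1, 97.5 and 95.3 CPM to 103.8, 97.0 and 103.7 CPM, a change of 0.12 (SE 0.04, edgeR adjusted p = 0.00523). The changes in Myc310 (0.04, 95% interval -0.04 to 0.11) and LM1-LM (0.05, 95% interval -0.03 to 0.12) did not pass. The call in MYAZ16.1e was lost without the cultures numbered 1 or 3 (edgeR adjusted p = 0.136 and 0.0558), and that in LM1 without those numbered 3 (edgeR adjusted p = 0.11) or with upper-quartile scaling (edgeR adjusted p = 0.299). Sqor (ENSMUSG00000005803; GRCm38 chr2:122765237-122809569, plus strand), the entry enzyme of sulfide oxidation, had 52 to 92 counts per library in MYAZ16.1e and 14 to 31 in the other 3 lines. Its fitted change was -0.22 for MYAZ16.1e, 0.07 for Myc310, 0.31 for LM1 and 0.49 for LM1-LM, with 95% intervals that each included 0. In LM1-LM it passed only without the cultures numbered 1 (0.85, edgeR adjusted p = 0.0239).

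Whether the response differed between lines was tested as an interaction, each of the 3 lines of the Myc310 lineage against MYAZ16.1e. These comparisons share the MYAZ16.1e cultures. Tst fell further than in MYAZ16.1e, with a log2 difference of -0.55 (SE 0.12) for Myc310, -0.83 (SE 0.13) for LM1 and -0.81 (SE 0.12) for LM1-LM and edgeR adjusted p = 0.000305, 1.51e-06 and 1.44e-06. It passed under each of the 10 alternatives run for each of these comparisons, with adjusted p from 2.89e-09 to 0.0322. Mpst fell further in Myc310 and in LM1-LM, with a difference of -0.35 (SE 0.14) in both (edgeR adjusted p = 0.0415 and 0.0329), and the difference in LM1 did not pass (-0.20, edgeR adjusted p = 0.239). The rise of Cth was larger by 0.22 (SE 0.08) in LM1 and 0.24 (SE 0.08) in LM1-LM (edgeR adjusted p = 0.0226 and 0.0116), against -0.09 in Myc310 (95% interval -0.25 to 0.07). Without the cultures numbered 3 the Myc310 difference passed in the other direction (-0.24, edgeR adjusted p = 0.0316). The Mpst calls were lost without the cultures numbered 1 or 2 (edgeR adjusted p = 0.163 and 0.1605 for Myc310, 0.536 and 0.194 for LM1-LM). The Cth calls were lost without those numbered 3 (edgeR adjusted p = 0.883 for LM1 and 0.228 for LM1-LM) and with upper-quartile scaling (0.151 and 0.101). For Sqor in LM1-LM the difference was 0.71 with a 95% interval from 0.04 to 1.39 (edgeR adjusted p = 0.0673), which passed in 3 of 10 alternatives (edgeR adjusted p = 0.0438 to 0.0495). For Ethe1 the 95% intervals of the difference were -0.23 to 0.17 for Myc310, -0.25 to 0.16 for LM1 and -0.31 to 0.09 for LM1-LM. In all, 2 of 8 members were called in Myc310 (0 higher and 2 lower), where 40.3% of all genes were, 2 in LM1 (1 higher and 1 lower) beside 52.2%, and 3 in LM1-LM (1 higher and 2 lower) beside 54.8%.

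The second question was how the lines differed in control medium, with the subtypes MYAZ, Myc310, LM and LM-LM as in the study's model. Cth was higher and Sqor lower in Myc310, LM and LM-LM than in MYAZ, and Suox was higher in all 3. Ethe1 was higher in LM and LM-LM, and Cbs, Csad and Mpst were lower in LM-LM. Tst and Cdo1 were called in none of these comparisons. Against MYAZ, 3 of 9 members were called in Myc310 (2 higher and 1 lower) where 50.9% of 13795 genes were. In LM 4 were called (3 higher and 1 lower) beside 60.8% of genes, and in LM-LM 7 (3 higher and 4 lower) beside 62.8%. Without Cbs, the median log2 fold change of the 8 other members was 0.07 for Myc310, 0.02 for LM and -0.14 for LM-LM, against -0.02 to 0.00 for all genes. The 3 comparisons share the MYAZ libraries, and their model takes cultures of one line as separate samples.

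Cth, the second TS enzyme, ran between 9.05 and 13.0 CPM in the 9 MYAZ libraries, between 28.2 and 32.2 in the 3 Myc310 libraries, between 17.02 and 25.2 in the 9 LM libraries and between 19.05 and 25.65 in the 9 LM-LM libraries. No MYAZ library reached the lowest library of the Myc310 lineage. Relative to MYAZ, Myc310 differed by 1.51 (SE 0.11), LM by 0.92 (SE 0.08) and LM-LM by 1.07 (SE 0.08) on the log2 scale, with edgeR adjusted p = 1.01e-12, 5.02e-11 and 1.90e-12. With counts summed per line it remained past the threshold in LM and LM-LM (edgeR adjusted p = 0.00314 and 0.00159). Myc310 is then a lone sample without a spread of its own, and no test is read for it. The 4 lowest groups of the series were MYAZ6.6g, MYAZ12.3i, MYAZ16.1e and the NDI1 line, at 10.1 to 11.7 CPM, whose cultures overlapped from each to the next. Above them LM2 (17.3 CPM), LM3 (18.9 CPM), LM2-LM (23.8 CPM) and Myc310 (30.5 CPM) each stood clear of the line just below.

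Sqor ran the other way. The 9 MYAZ libraries had 2.59 to 4.74 CPM (61 to 108 counts) against 0.789 to 1.03 CPM in Myc310, 0.387 to 0.994 in LM and 0.653 to 1.12 in LM-LM. Every MYAZ library exceeded every library of the Myc310 lineage in either medium, of which the highest, a deprived LM1-LM culture, had 1.56 CPM. Relative to MYAZ, Myc310 differed by -1.93 (SE 0.26), LM by -2.09 (SE 0.17) and LM-LM by -1.96 (SE 0.17) on the log2 scale, with edgeR adjusted p = 2.98e-07, 6.28e-12 and 1.96e-11. With counts summed per line the edgeR adjusted p was 0.00127 in LM and 0.00158 in LM-LM, and for the lone Myc310 sample no test is read. Within the lineage the 10 lowest groups, from LM2 at 0.704 CPM to deprived LM1-LM at 1.31 CPM, overlapped from each to the next. The 4 endothelial markers summed to 4.19 to 6.49 CPM in the MYAZ lines and to 0.191 to 0.855 CPM in the Myc310 lineage in control medium. In the MYAZ lines the sum was nearly all Kdr, while Cdh5 was at most 0.0565 CPM in the MYAZ lines against 0.0516 to 0.679 CPM in the lineage, and Pecam1 and Tek were near 0. The part of other cell types in the Sqor difference was not tested.

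Suox, the member with the highest median level, set many single lines apart. MYAZ12.3i had 21.9, 22.8 and 20.4 CPM, MYAZ6.6g 39.3, 40.3 and 41.6 CPM, and MYAZ16.1e 60.9, 67.2 and 63.4 CPM. LM3 had 56.2, 55.9 and 55.1 CPM, LM2 65.6, 63.8 and 65.3 CPM, and LM1 94.1, 97.5 and 95.3 CPM. LM3-LM (76.3, 73.1 and 77.4 CPM) and LM2-LM (78.5, 75.5 and 73.5 CPM) overlapped each other and Myc310 (75.5, 82.3 and 80.7 CPM). LM1-LM, at 115.3, 114.2 and 116.6 CPM, was the highest line. Of the 14 steps between neighbouring groups in the order of means, 7 separated the cultures, against 6 for Cth and 0 for Cdo1. This count was not taken over all genes. It also depends on depth, with 491 to 3066 counts per library for Suox and 0 to 19 for Cdo1. Relative to MYAZ, Myc310 differed by 0.92 (SE 0.27), LM by 0.78 (SE 0.20) and LM-LM by 1.07 (SE 0.20) on the log2 scale, with edgeR adjusted p = 0.00516, 0.00128 and 3.38e-05. With counts summed per line the Suox calls in LM and LM-LM were lost (edgeR adjusted p = 0.153 and 0.0601), and the lone Myc310 sample differed by 0.934. MYAZ16.1e lay within the range of the LM lines.

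Cbs also separated lines rather than subtypes. MYAZ12.3i had 57, 61 and 62 counts, MYAZ6.6g 60, 50 and 51 and LM3 44, 47 and 44, against 3 to 6 counts in control MYAZ16.1e and at most 17 in any other library of the Myc310 lineage. The levels were 2.54 ± 0.232 CPM in MYAZ12.3i, 2.27 ± 0.314 in MYAZ6.6g and 1.87 ± 0.0895 in LM3 (SD, n = 3 cultures each). LM3, MYAZ12.3i, the NDI1 line and MYAZ6.6g stood clear of the other groups. Cbs was called lower in LM-LM (edgeR adjusted p = 0.00135), but the LM-LM libraries include those of LM1-LM at the floor, so that the fitted log2 value of -2.53 (SE 0.66) is not read as a fold. The call was lost with counts summed per line (edgeR adjusted p = 0.149). The difference in Myc310 (-2.30, edgeR adjusted p = 0.0582) passed in 5 of 19 alternatives. These were DESeq2 with all lines kept (-2.32, adjusted p = 0.0279) and edgeR without LM1, LM1-LM, LM3 or MYAZ16.1e (adjusted p = 0.0367, 0.047, 0.0352 and 0.00859). The difference in LM (-0.995, edgeR adjusted p = 0.157) passed without MYAZ16.1e (-1.52, edgeR adjusted p = 0.0177) and without LM3 (-2.44, edgeR adjusted p = 0.00348). LM includes LM1, with 1, 3 and 5 counts of Cbs, so that these fitted values are likewise not read as folds. The 6 fibroblast markers summed to 97.1 CPM in the NDI1 line, 85.4 in MYAZ12.3i and 32.2 in MYAZ6.6g, the lines with the highest Cbs, and to between 1.39 and 21.2 CPM in the other lines in control medium, with LM3 at 10.1 CPM. Pdgfrb was high in the same 3 lines (22.5 to 37.6 CPM), whereas Pdgfra in MYAZ6.6g (6.64 CPM) lay below LM2 (20.4 CPM), LM3-LM (16.3 CPM) and LM3 (8.95 CPM). Col1a1 and Col1a2 did not exceed 3.16 CPM, and Dcn and Lum were at or near 0 in every group. The part of such cells in the level of Cbs was not tested.

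Ethe1 differed little, with 21.2 to 31.4 CPM in the MYAZ libraries, 29.1 to 33.7 in LM and 29.9 to 36.6 in LM-LM libraries. The fitted log2 difference from MYAZ was 0.25 (SE 0.06) in LM and 0.34 (SE 0.06) in LM-LM (edgeR adjusted p = 0.00107 and 2.45e-05), and the LM call was lost with counts summed per line (edgeR adjusted p = 0.135). In Myc310 the difference of 0.20 (edgeR adjusted p = 0.0552) passed without MYAZ6.6g (0.32, edgeR adjusted p = 0.000798). Csad was lower in LM-LM with a log2 fold change of -0.66 (SE 0.17, edgeR adjusted p = 0.00103), a call lost with counts summed per line (edgeR adjusted p = 0.165). The low values were those of LM2-LM, with 7.19, 7.10 and 7.13 CPM, and of LM1-LM, with 11.2, 8.89 and 10.7 CPM, whereas LM3-LM had 17.4, 16.9 and 17.3 CPM, within the range of the MYAZ libraries (15.1 to 22.3 CPM). The Csad difference in LM (-0.29, edgeR adjusted p = 0.128) passed in 3 alternatives (edgeR adjusted p = 0.02 to 0.0498), and that in Myc310 (-0.38, edgeR adjusted p = 0.19) passed when only Myc310 and MYAZ were fitted (edgeR adjusted p = 0.0293). Mpst was lower in LM-LM, with a change of -0.40 (SE 0.14, edgeR adjusted p = 0.0146), a call lost in 8 of the 20 alternatives. In Myc310 the difference of Mpst from MYAZ was -0.48 (edgeR adjusted p = 0.0512), which passed in 7 of 20 alternatives, among them DESeq2 (adjusted p = 0.0402) and the RLE and upper-quartile scalings (edgeR adjusted p = 0.0491 and 0.0468). The Mpst difference in LM (-0.24, edgeR adjusted p = 0.138) passed without MYAZ16.1e (-0.44, edgeR adjusted p = 0.00345). Mpst was highest in MYAZ6.6g (31.0 CPM), MYAZ12.3i (30.1) and the NDI1 line (29.1), while MYAZ16.1e, at 18.6 CPM, overlapped Myc310, LM1, LM1-LM and LM2-LM. Tst ranged from 13.2 CPM in LM1 to 24.8 in LM3, and its log2 fold change against MYAZ lay between -0.06 and 0.12 in the 3 comparisons. Without LM1 the Tst difference in LM was 0.33 and passed (edgeR adjusted p = 0.0326), and without LM3 it was -0.115. Cdo1 had 0 to 19 counts per library, and in its order of 15 groups no neighbouring pair was apart.

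All LM and LM-LM lines descend from the single line Myc310, so that neither the counts summed per line nor the test of line means compares independent tumours. With lines in place of cultures, 3 LM or LM-LM lines stood against 3 MYAZ lines, where an exact permutation test cannot go below p = 0.1 (two-sided). That smallest value was reached by Cth and Sqor in LM and in LM-LM, and by Ethe1 and Suox in LM-LM, or 2 of 9 members in LM and 4 of 9 in LM-LM. Among the 13795 genes tested, the line means did not overlap for 43.3% in LM and 43.7% in LM-LM. The lines of the subtypes overlapped for all other members. The differences of line means on the log2 scale were 0.91 and 1.09 for Cth and -2.00 and -1.85 for Sqor in LM and LM-LM, and 0.36 for Ethe1 and 1.19 for Suox in LM-LM. No such test can pass 0.05 with these numbers of lines.

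**Figure D5:**
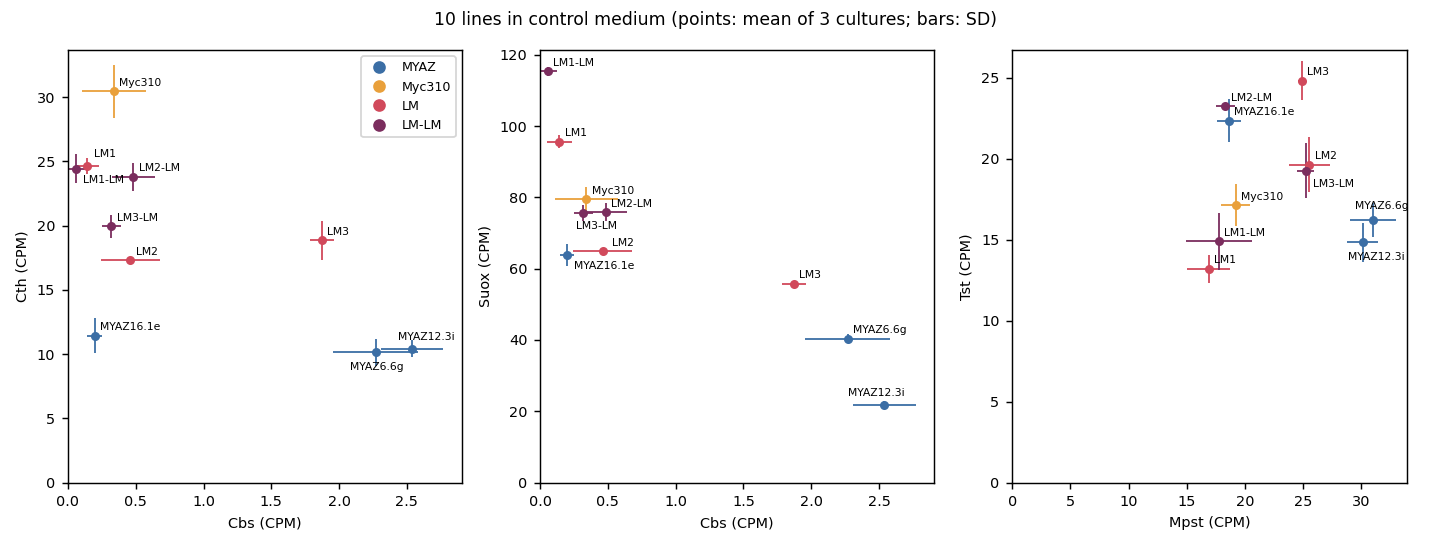
Levels of 10 lines in control medium (CPM after TMM scaling, points at the mean of 3 cultures, bars the SD), for Cth against Cbs, Suox against Cbs, and Tst against Mpst, coloured by subtype. MYAZ lines stand lowest in Cth whether Cbs is low (MYAZ16.1e, 0.198 CPM) or high (MYAZ12.3i, 2.54 CPM), and LM1-LM, the line highest in Suox, has 3, 0 and 1 counts of Cbs, at the floor and overlapping LM1.

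Lines of one subtype were then compared with each other. Within MYAZ 7 of 9 members differed between lines, where 73.7% of 13899 genes did, within LM 7 (61.3% of genes) and within LM-LM 6 (67.6%). Suox gave the smallest p within each subtype, with a fitted distance between the highest and lowest line of 1.55 in MYAZ, 0.74 in LM and 0.61 in LM-LM on the log2 scale (edgeR adjusted p = 5.07e-25, 5.87e-18 and 1.46e-17). Cbs differed in all 3 subtypes (edgeR adjusted p = 2.88e-10, 2.58e-09 and 0.000278). The spread of Csad was widest in LM-LM (1.29, edgeR adjusted p = 1.13e-14) and that of Tst in LM (0.94, edgeR adjusted p = 7.62e-11). Sqor did not differ within LM (edgeR adjusted p = 0.46) or LM-LM (edgeR adjusted p = 0.578) at 9 to 26 counts per library, and Cdo1 passed in none of the subtypes.

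Along the line of descent, 3 of 9 members were called between LM1 and its parent Myc310 (1 higher and 2 lower), where 32.5% of genes were. Cth fell by 0.32 on the log2 scale (SE 0.07, edgeR adjusted p = 0.00042) and Tst fell by 0.39 (SE 0.09, edgeR adjusted p = 0.00085), and Suox rose by 0.25 (SE 0.04, edgeR adjusted p = 1.86e-06). Between LM1-LM and LM1, 2 of 9 were called, both higher, beside 10.6% of genes. Suox rose again by 0.27 (SE 0.04, edgeR adjusted p = 1.35e-06), so that it climbed from 79.5 CPM in Myc310 through 95.6 in LM1 to 115.4 in LM1-LM. Ethe1 rose by 0.21 (SE 0.06, edgeR adjusted p = 0.0155), a call lost without the cultures numbered 1 or 2 (edgeR adjusted p = 0.135 and 0.117). Mpst in LM1 against Myc310 (-0.21, edgeR adjusted p = 0.0549) passed with DESeq2 (adjusted p = 0.0367), with both other filters (edgeR adjusted p = 0.0321 and 0.0469) and without the cultures numbered 1 (edgeR adjusted p = 0.0209). Csad in LM1 against Myc310 (-0.20, edgeR adjusted p = 0.0818) passed without those numbered 2 (edgeR adjusted p = 0.011). Csad in LM1-LM against LM1 (-0.26, edgeR adjusted p = 0.0526) passed with DESeq2 (adjusted p = 0.0456) and without those numbered 1 (edgeR adjusted p = 0.00532). The Suox levels of LM2-LM (75.8 CPM) and LM3-LM (75.6 CPM) lay below that of LM1-LM. In the sister lines LM2 (64.9 CPM) and LM3 (55.7 CPM) Suox lay below Myc310. Tst was higher in LM2 (19.6 CPM) and LM3 (24.8 CPM) than in Myc310 (17.1 CPM), unlike in LM1. Cth was lower than in Myc310 (30.5 CPM) in LM2 (17.3 CPM) and LM3 (18.9 CPM), as in LM1.

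In MYAZ12.3i with NDI1, 0 of 8 members tested were called against MYAZ12.3i by edgeR and 0 by DESeq2, where edgeR called 17.4% of 12841 genes. Sqor alone had an unadjusted p under 0.05. It had 3.09, 2.98 and 2.58 CPM in MYAZ12.3i and 1.80, 2.24 and 1.90 CPM with NDI1, without overlap, and a log2 fold change of -0.54 (95% interval -0.95 to -0.13, edgeR adjusted p = 0.0682). The intervals of the other tested members, apart from Cbs (-0.63 to 0.21), lay between -0.18 and 0.34. The NDI1 transcript itself is not analysed here.

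A list of 32 further genes of sulfur metabolism gives the surroundings of the 9 members, and 23 of them could be tested in the deprivation fit. Of these, 17 were called in MYAZ16.1e, of which 7 rose and 10 fell, 19 in Myc310 (7 and 12), 20 in LM1 (8 and 12) and 19 in LM1-LM (7 and 12), where 53.7%, 66.8%, 71.1% and 72.4% of all genes were called. The median log2 fold change was 0.02, -0.13, -0.28 and -0.23 in these lines. Got1, Mocs1 and Mocs3 rose in all 4 lines. Got1 encodes the cytosolic aspartate aminotransferase, which also acts on cysteine sulfinate, and its log2 fold change was 0.61 to 1.12. Mocs1 (0.50 to 0.91) and Mocs3 (0.23 to 0.51) act in the synthesis of the molybdenum cofactor that sulfite oxidase carries. Another 9 fell in all 4 lines. The 3 and 9 of 23 stand beside the 19.3% and 19% of all genes given above. Among them were Pank1, a pantothenate kinase at the head of coenzyme A synthesis (-0.54 to -1.66), Kyat3, a cysteine conjugate beta-lyase (-0.51 to -1.68), and the taurine transporter Slc6a6 (-0.67 to -1.02). The mitochondrial dicarboxylate carrier Slc25a10, which also exports thiosulfate and sulfate, fell (-0.695 to -1.0), as did the mitochondrial cysteinyl-tRNA synthetase Cars2 (-0.31 to -0.96) and the sulfate transporter Slc26a2 (-0.47 to -0.98). The cysteine desulfurase Nfs1 (-0.16 to -0.55), the cysteamine dioxygenase Ado (-0.11 to -0.80) and the sulfate-activating enzyme Papss1 (-0.16 to -0.33) completed the 9.

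Neighbours in expression were taken as the 3 genes with the highest Pearson correlation to each member over the means of the 15 groups, among 14106 genes. These are descriptions over points that share lines and medium. Cth ran with Slc7a1 (r = 0.995), the cationic amino acid transporter, Mettl7b (0.99) and Aldh18a1 (0.988), an enzyme of proline synthesis. Suox ran with Utp14a (0.982), Cdk16 (0.977) and Rraga (0.976), and Sqor with Nog (0.966), Lrp2 (0.963) and Chmp4c (0.961). Tst was nearest to Ints10 (0.964), Mvb12a (0.955) and Prdx2 (0.946), and Mpst to Adamts4 (0.958), Vsig10 (0.955) and Dhx58 (0.952). Ethe1 was nearest to Sdf2l1 (0.957), Csad to Ppp6r2 (0.926), Cbs to Smarcal1 (0.925) and Cdo1 to Gm35339 (0.921), the last 2 at low counts. Between members, Cbs had r = 0.836 with Mpst and -0.894 with Suox, values that rest in part on groups with Cbs counts at the floor. Without Cbs and Cdo1, the lowest correlation was that of Mpst with Suox (-0.828) and the highest that of Cth with Suox (0.609). The correlation of Tst with its genomic neighbour Mpst was 0.606.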

How the data were processed

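Read counts per gene were deposited by the authors for 45 libraries, made from directional polyA paired-end reads of 100 bases. Per the labels, reads were mapped to GRCm38 with STAR and counted with RSEM, and DESeq2 1.38.3 and R 4.2.2 were used. The deposited counts are whole numbers. Here, edgeR 4.0.16 in R 4.3.3 (TMM scaling, filterByExpr, quasi-likelihood test, Benjamini-Hochberg adjusted p under 0.05) was fitted over all genes in 24 libraries for deprivation, 30 for subtypes, 33 for line comparisons and 6 for NDI1. Log values used a prior count of 2. Line means were compared by an exact permutation test. Totals of 19517859 to 29019988 counts per library set the precision. Alternatives were RLE and upper-quartile scaling, other filters, DESeq2 1.42.0, the replicate number as a block, fits of other sets of libraries, counts summed per line, and leaving out each replicate or line. Scripts were tested on simulated data. No library was left out. All 9 members are named, as are related genes called in all 4 lines and the nearest genes by correlation. The members and lists were chosen with earlier results of these data known.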

Additional observations from a re-analysis of the deposited data

Results flagged for a closer look

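In 7 cases the response to deprivation differed from that of MYAZ16.1e by the interaction test of edgeR, with 2 of 8 members for Myc310, 2 for LM1 and 3 for LM1-LM, where 40.3%, 52.2% and 54.8% of all genes were called. For Tst the log2 difference was -0.554 for Myc310, -0.835 for LM1 and -0.806 for LM1-LM, with edgeR adjusted p = 0.000305, 1.51e-06 and 1.44e-06. For Mpst it was -0.351 in Myc310 (edgeR adjusted p = 0.0415) and -0.351 in LM1-LM (edgeR adjusted p = 0.0329). For Cth it was 0.221 for LM1 and 0.241 for LM1-LM, with edgeR adjusted p = 0.0226 and 0.0116. All 7 share the MYAZ16.1e cultures. Groups of 3 cultures are too small for the search for single outlying libraries. The distance between 2 cultures was described by a chi-square of their gene counts per degree of freedom. In MYAZ16.1e control it was 6.17 and 7.4 for culture 1 against 2 and 3, and 3.57 between 2 and 3. In LM1-LM control the same values were 5.34, 6.78 and 3.01.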

How the results depend on the processing

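Of the alternatives for members that were called, 697 kept direction and call, 39 lost the threshold and 0 reversed. Of those for members not called, 713 stayed, 37 gained the threshold and 30 reversed. With a replicate left out, log2 values that changed sign ranged, for deprivation, from -0.075 to 0.046 for Mpst in MYAZ16.1e and from -0.107 to 1.483 for Cbs and -0.123 to 0.232 for Sqor in Myc310. Responses against MYAZ16.1e ranged, in Myc310, from -0.026 to 0.026 for Csad, -0.241 to 0.014 for Cth, -0.067 to 0.035 for Ethe1 and -1.579 to 0.318 for Cbs, in LM1, from -0.037 to 0.016 for Suox and from -0.107 to 0.044 for Ethe1, and in LM1-LM from -1.328 to 0.222 for Cbs, a range fitted to counts at the floor from which no fold is read. In control medium they ranged from -0.131 to 0.004 for Tst in Myc310 and -0.483 to 0.123 for Cdo1 in LM (both against MYAZ), from -0.378 to 0.046 for Sqor in LM1 against Myc310, from -0.067 to 0.019 for Cth and -1.543 to 0.119 for Cdo1 in LM1-LM against LM1 (0 to 6 counts per library, from which no fold is read), and from -0.013 to 0.07 for Suox with NDI1. Under other settings the reversed values were Suox -0.034 for deprived LM1-LM, Csad -0.029 for the Myc310 response and Csad -0.018 for the LM1-LM response, each with upper-quartile scaling, and Suox 0.009 for the LM1 response with no filter. Against MYAZ they were Tst 0.136 for Myc310 without MYAZ16.1e, Cdo1 0.142 without LM1 and 0.13 without MYAZ6.6g and Tst -0.115 without LM3 for LM, and Tst -0.069 without LM2-LM and -0.026 without MYAZ12.3i for LM-LM. The causes were not tested.

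With a replicate left out, 13432 to 13471 genes were tested for deprivation. Members called in MYAZ16.1e then ranged from 2 to 4, beside 6128 to 6317 genes. In the Myc310 response they ranged from 1 to 2, beside 4045 to 4512 genes. In the LM1 response they were 1 with upper-quartile scaling (7000 of 13400 genes) and 1 to 2 with a replicate left out (5939 to 6190 genes). For Myc310 against MYAZ they were 5 with DESeq2 (beside 7288 of 17354 genes), 5 without LM1 (7114 of 13767) and 5 without MYAZ16.1e (7791 of 13719). With counts summed per line, 2 members were called in LM and 3 in LM-LM, beside 3788 and 4226 of 16017 genes. The main fit called 8385 and 8661 of 13795 genes. The lone Myc310 sample has no spread of its own, so no count is given for it. Leaving out a replicate gave 1 to 2 members and 840 to 919 genes against 1467 for LM1-LM against LM1, and 898 to 1326 genes against 2236 for NDI1. Replicate numbers did not pair the cultures (correlations of deviations -0.181 to 0.149 over 10795 genes). With the replicate block, Mpst in LM1 was -0.231 (edgeR adjusted p = 0.0505) and 5 members were called there in place of 6, beside 9494 of 13400 genes. The F tests between lines have no DESeq2 alternative. Depth limits Cbs, Cdo1 and Sqor.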
